A study of Rattus norvegicus with 48 samples.

Results

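The serum small RNA libraries of ZDF rats treated with an anti-sclerostin antibody (n = 4) were compared with those of ZDF rats treated with parathyroid hormone (PTH, n = 5). These 9 libraries, of 48 in the series and 32 from serum, were chosen by their labels for tissue, strain and treatment, and no measured value entered the choice. ZDF (Zucker Diabetic Fatty) fa/fa rats carry a homozygous leptin receptor mutation and develop type 2 diabetes spontaneously. The rats were fed a high-fat, high-carbohydrate diet from 11 weeks of age. All were males with a surgical defect in the femur, were 11 weeks old when dosing began and were treated for 12 weeks. Anti-sclerostin was injected subcutaneously at 25 mg/kg, and PTH, on more days of the week, at 75 µg/kg. Placebo-treated ZDF rats (n = 5) are given as the reference level, and lean WT rats on anti-sclerostin (n = 4) or PTH (n = 5) as a comparison that shares no sample with the ZDF rats. The study credits the rats on each drug to a different earlier publication, so drug, dose, schedule and experiment of origin cannot be told apart. It credits the placebo rats to the PTH publication and another one, but not to the anti-sclerostin one. A difference between anti-sclerostin and placebo levels therefore cannot be told apart from one between experiments. The replicate numbers below only name rats, in the order of deposition.

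Both drugs build bone by different routes. Sclerostin, secreted by osteocytes, inhibits Wnt signalling in osteoblasts, and an antibody against it lifts that inhibition. PTH acts through its receptor on osteoblasts and osteocytes and, when given intermittently, increases bone formation. MicroRNAs (miRNAs) are short RNAs that repress target mRNAs by pairing through their seed, bases 2 to 8, and those found in serum can come from any tissue or from blood cells. In serum, a change in release, in clearance and in the number of releasing cells cannot be told apart.

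The mature miRNAs that differed most between the drugs before adjustment did not share a seed. Their sequences are shown because they identify what was counted, and the seed of each is in capitals. RefSeq (build GRCr8) held 13 of the 14 miRNAs with an unadjusted p below 0.05, with 13 different seeds, and miR-30e-3p is named only. The members of the let-7 family follow because they share the seed of miR-98-5p, and miR-1-3p and miR-1b because they differ at 1 of 22 bases.
miR-143-3p: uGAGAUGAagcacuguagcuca
miR-145-3p: gGAUUCCUggaaauacuguuc
miR-10b-5p: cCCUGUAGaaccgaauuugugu
miR-126a-3p: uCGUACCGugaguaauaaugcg
miR-199a-3p: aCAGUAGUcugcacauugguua
miR-1839-5p: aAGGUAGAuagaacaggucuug
miR-27a-5p: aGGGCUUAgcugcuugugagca
miR-450a-5p: uUUUGCGAuguguuccuaaugu
miR-193a-3p: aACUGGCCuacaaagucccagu
miR-22-3p: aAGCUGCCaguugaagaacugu
miR-22-5p: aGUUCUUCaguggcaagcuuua
miR-130a-3p: cAGUGCAAuguuaaaagggcau
miR-98-5p: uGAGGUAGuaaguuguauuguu
let-7a-5p: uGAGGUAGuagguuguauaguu
let-7b-5p: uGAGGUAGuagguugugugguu
let-7i-5p: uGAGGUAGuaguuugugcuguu
miR-1-3p: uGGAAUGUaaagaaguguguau
miR-1b: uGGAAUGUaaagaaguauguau
In GRCr8, miR-143-3p lies at chr18:57371373-57371394 and miR-145-3p at chr18:57369997-57370017, both on the minus strand, and their hairpins are separated by 1278 bases. Mature miR-126a-3p lies at chr3:29813219-29813240 and miR-22-3p at chr10:60805387-60805408, on the plus strand. MiR-1839-5p, at chr1:144893859-144893880 on the plus strand, is listed by RefSeq under Scarna15, a small Cajal body RNA gene.

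The reads counted on miRNAs numbered 28015, 150605, 96551 and 33591 in anti-sclerostin rats 1 to 4 and 65498, 79847, 104745, 75064 and 100497 in PTH rats 1 to 5. Anti-sclerostin rats 1 and 4 had the fewest miRNA reads of the 9, which made up 0.536% and 0.529% of all their reads against 0.894% to 2.96% in the other 7. Total library reads ran from 3263916 in anti-sclerostin rat 3 to 7325498 in PTH rat 1. Of 763 miRNAs listed, 466 had a read in these libraries and 163 passed the filter on low counts. The difference between drugs in log2 miRNA reads was -0.46 (exact permutation test, two-sided, p = 0.381). Extraction controls were added in equal amount to each serum, and miRNA reads per control read ranged from 0.144 to 0.401 with anti-sclerostin and from 0.145 to 2.05 with PTH, the highest value being PTH rat 3. The difference was -0.68 on the log2 scale (exact permutation p = 0.452). Hemolysis was measured by the reads of miR-451-5p, a red blood cell miRNA, over those of miR-23a-3p. On the log2 scale this ratio was 1.60, -0.81, -0.93 and -0.15 with anti-sclerostin. With PTH it was 1.55, 1.11, 4.29, 1.04 and -1.43, with PTH rat 3 the highest again. Placebo ran from -0.49 to 1.41, and anti-sclerostin rat 1 and PTH rats 1 and 3 lay above it, anti-sclerostin rats 2 and 3 and PTH rat 5 below it. The groups differed by -1.38 (exact permutation p = 0.302). After Benjamini-Hochberg adjustment over these 3 tests, each of which can reach 0.00794 at the least, every exact permutation p was 0.452.

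**Figure D1:**
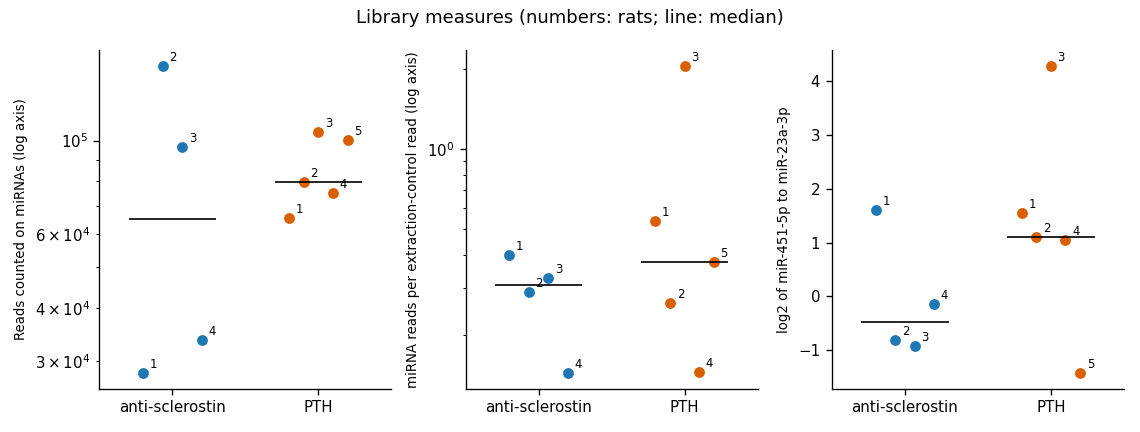
Reads counted on miRNAs, miRNA reads per extraction-control read (both log axes) and the hemolysis ratio (log2 of miR-451-5p over miR-23a-3p) in each of the 9 ZDF sera, with the rat's number beside each point and the group median as a line. PTH rat 3 has the highest control ratio (2.05) and hemolysis ratio (4.29), and the groups overlap in all 3 measures.

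No miRNA passed FDR < 0.2 between anti-sclerostin and PTH in edgeR's quasi-likelihood test (0 of 163, 0%), and the smallest adjusted p was 0.208, for miR-143-3p. At an unadjusted p below 0.05 there were 14 (8.59%), of which 10 had a lower and 4 a higher level with anti-sclerostin. DESeq2 called 1, miR-143-3p, and had 19 at an unadjusted p below 0.05. Levels are given as TMM CPM, the reads of a miRNA per 1000000 miRNA reads after scaling between libraries, and fold changes as log2(anti-sclerostin/PTH). The fitted values were below 0 for 91 miRNAs and above 0 for 72, with a median of -0.18 and a range of -2.85 to 1.45. The precision was limited: the 95% interval of the log2 fold change had a median half-width of 1.11, and for 152 of the 163 miRNAs it reached beyond 1 in at least one direction. Those intervals therefore include differences of more than 1 log2 unit for most miRNAs that missed the threshold.

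**Figure D2:**
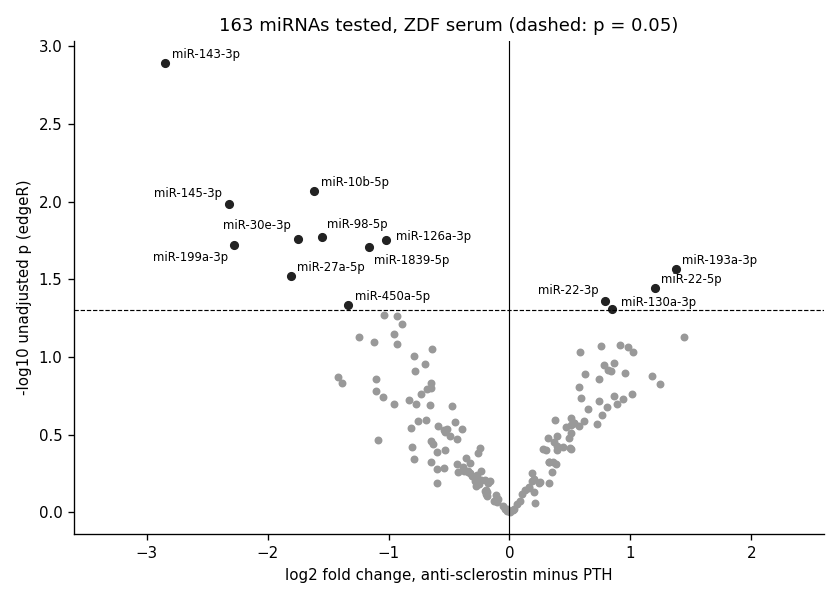
The log2 fold change of anti-sclerostin against PTH (x axis) and -log10 of the unadjusted p-value in edgeR (y axis) for the 163 miRNAs tested, with a dashed line at the 0.05 threshold. The 14 miRNAs above the line are named, and miR-143-3p (-2.85) stands apart on the left.

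MiR-143-3p and miR-145 are made from 1 transcript of smooth muscle and fibroblast-like cells, and are known to promote the contractile state of smooth muscle. The level of miR-143-3p was 8287, 1973, 1948 and 3720 TMM CPM in anti-sclerostin rats 1 to 4. In PTH rats 1 to 5 it was 74034, 20268, 15980, 8232 and 24133. Only anti-sclerostin rat 1 and PTH rat 4 overlapped, and PTH rat 1 was far above the rest. The means were 3982 ± 2987 (SD, n = 4) and 28529 ± 26114 (SD, n = 5), and the log2 fold change was -2.85 (SE 0.69, 95% interval -4.35 to -1.35, unadjusted p = 0.00128 and adjusted p = 0.208 in edgeR). The exact permutation p was 0.0238, or 0.611 after adjustment over the 163 miRNAs. Leaving out 1 rat moved the log2 fold change between -3.49 and -2.12 and the edgeR-adjusted p between 0.0558 and 0.748. The adjusted p fell below 0.2 without anti-sclerostin rat 1 (0.0558), PTH rat 3 (0.181) or PTH rat 4 (0.104). In placebo-treated ZDF rats the level ran from 8025 to 58352, with a median of 15910.

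The other arms of the transcript also lay lower with anti-sclerostin, from far fewer reads for miR-145-3p. MiR-145-3p was at 180, 41.1, 28.6 and 48.9 TMM CPM with anti-sclerostin, from 2 to 7 reads, and at 860, 199, 151, 148 and 226 with PTH, from 12 to 63 reads. Again the highest anti-sclerostin value, in rat 1, overlapped the lowest PTH values (log2 fold change -2.32, SE 0.77, edgeR-adjusted p = 0.400). MiR-145-5p, which is known to act on osteoblast and smooth muscle differentiation, was within 2435 to 2774 in all 4 anti-sclerostin rats. In PTH rats 1, 2, 4 and 5 it was at 8012, 5213, 6137 and 7143, and in PTH rat 3 at 1059, below every anti-sclerostin rat. Its log2 fold change was -1.04 (SE 0.49, 95% interval -2.10 to 0.02, edgeR-adjusted p = 0.544). Without PTH rat 3, the only PTH rat below the anti-sclerostin range, miR-145-5p passed the threshold (edgeR-adjusted p = 0.164), and 2 miRNAs were called in all. This was the lowest adjusted p of miR-145-5p over 21 alternative settings, the highest being 0.992. PTH rat 3 also had the highest hemolysis ratio, and whether this bears on its miR-145-5p level was not tested. The summed level of the 4 arms was 4421 to 11241 with anti-sclerostin and 14518 to 82919 with PTH.

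Among the 163 miRNAs, 2 had groups without overlap (1.23%), miR-126a-3p and miR-1839-5p. MiR-126a-3p, an endothelial miRNA also found in platelets, was at 1838, 1403, 1089 and 1909 TMM CPM with anti-sclerostin and at 4805, 3197, 2060, 3217 and 2486 with PTH. Every anti-sclerostin rat was below every PTH rat. All 4 anti-sclerostin rats and PTH rats 3 and 5 were below the placebo range in ZDF rats, 3018 to 5024. The study chose miR-126a-3p on these anti-sclerostin sera against placebo, so their place below placebo is not independent. The fitted log2 fold change was -1.02 (SE 0.37, 95% interval -1.83 to -0.21, edgeR-adjusted p = 0.400, exact permutation p = 0.0159, adjusted 0.611). The opposite arm, miR-126a-5p, overlapped, at 2712 to 5837 with anti-sclerostin and 2456 to 9206 with PTH. MiR-1839-5p was at 252, 206, 181 and 147 with anti-sclerostin and at 368, 358, 710, 296 and 452 with PTH (log2 fold change -1.16, SE 0.43, edgeR-adjusted p = 0.400, exact permutation p = 0.0159, adjusted 0.611). Both miRNAs were picked for the absence of overlap, which by itself makes the exact permutation p small. That p is therefore no separate support for a difference. With 4 and 5 rats, 0.0159 is the share of assignments that separate the groups fully, close to the 1.23% observed. The count of 2 is therefore not read as a difference between the drugs. The placebo range of miR-1839-5p was 236 to 487, with anti-sclerostin rats 2, 3 and 4 below it and PTH rat 3 above it.

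**Figure D3:**
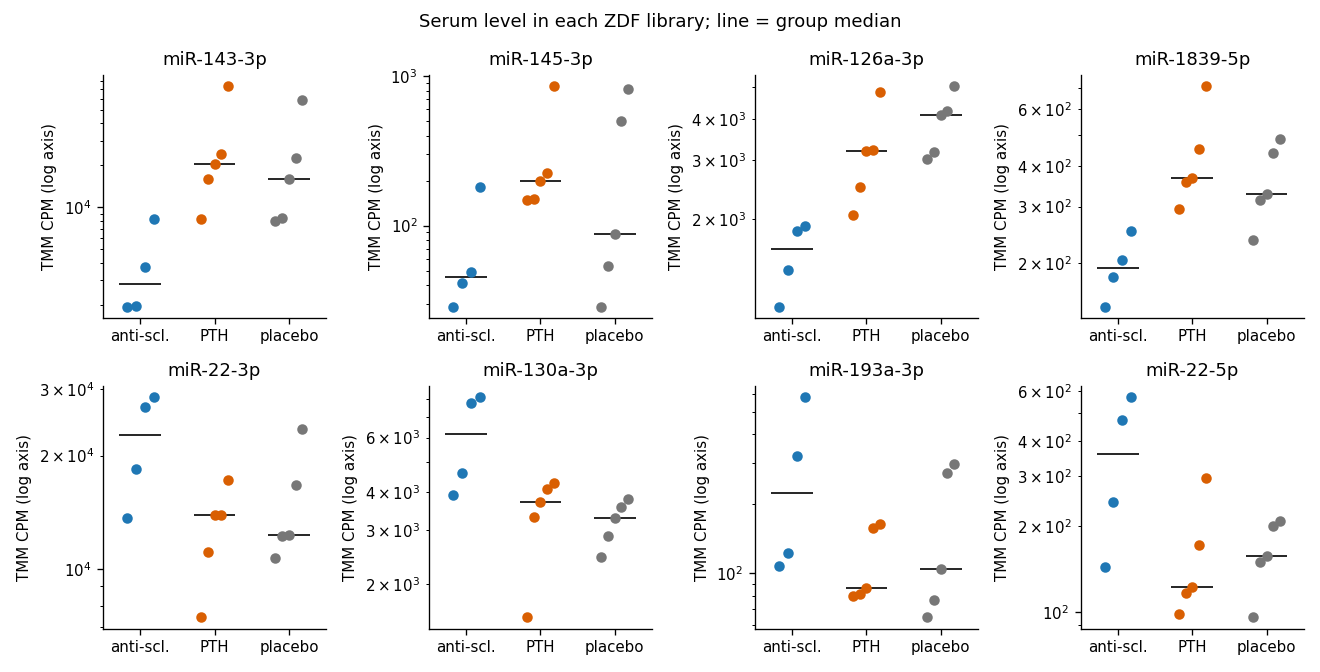
Level in TMM CPM (log axes, scaled separately) of 8 miRNAs in each ZDF serum library after anti-sclerostin (n = 4), PTH (n = 5) or placebo (n = 5), with the group median as a line. MiR-126a-3p and miR-1839-5p are the miRNAs whose anti-sclerostin and PTH points do not overlap, and the other 6 overlap in at least 1 rat.

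The remaining miRNAs with a lower fitted level and an unadjusted p below 0.05, those in no list being named after their values were seen, all had overlapping groups. MiR-199a-3p, made in mesenchymal cells including osteoblasts, was at 252, 41.1, 47.7 and 24.5 TMM CPM with anti-sclerostin and at 805, 225, 454, 49.3 and 334 with PTH (log2 fold change -2.27, SE 0.84, edgeR-adjusted p = 0.400). Its anti-sclerostin values came from 1 to 7 reads. MiR-10b-5p, a Hox-cluster miRNA, was at 24.5 to 108 with anti-sclerostin and 106 to 303 with PTH (log2 fold change -1.61, SE 0.52). MiR-98-5p, miR-30e-3p, miR-27a-5p and miR-450a-5p had log2 fold changes of -1.55, -1.75, -1.81 and -1.33. PTH rat 3 had the highest level of miR-98-5p (919), miR-30e-3p (1688) and miR-27a-5p (1257) of the 9 rats.

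The 4 miRNAs with a higher fitted level and an unadjusted p below 0.05 were highest in anti-sclerostin rats 2 and 3. Those in no list were named after their values were seen. MiR-22-3p, an abundant miRNA of many tissues, was at 13692, 28681, 26911 and 18476 TMM CPM with anti-sclerostin and at 13895, 11115, 7437, 17180 and 13894 with PTH (log2 fold change 0.79, SE 0.35, edgeR-adjusted p = 0.544). Anti-sclerostin rat 1 fell within the PTH range. The arm miR-22-5p was at 144 to 573 with anti-sclerostin and 98.3 to 296 with PTH. MiR-193a-3p had a log2 fold change of 1.37 (SE 0.55), with 108 to 582 TMM CPM of miR-193a-3p after anti-sclerostin and 79.6 to 164 after PTH. MiR-130a-3p, known from endothelial and blood-forming cells, was at 3891, 7752, 8155 and 4601 with anti-sclerostin and at 3713, 3303, 1560, 4264 and 4097 with PTH (log2 fold change 0.85, SE 0.39, edgeR-adjusted p = 0.544). All 4 anti-sclerostin rats and PTH rats 4 and 5 were above the placebo range of 2450 to 3790, and PTH rat 3 was below it. The study chose miR-130a-3p, too, on these anti-sclerostin sera against placebo, so their place above placebo is not independent.

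The 8 most abundant miRNAs took 51.4% of the miRNA reads, and none of them had an edgeR-adjusted p below 0.551. MiR-191a-5p was the highest, at a mean of 128457 TMM CPM over the 9 libraries, with 70403 to 164238 after anti-sclerostin and 45793 to 239262 after PTH. The log2 fold changes were -0.27 for miR-191a-5p, -0.16 for miR-92a-3p, -0.28 for miR-486, -0.26 for miR-16-5p, -0.60 for miR-25-3p, 0.28 for miR-29a-3p, -0.24 for miR-21-5p and -0.48 for miR-19b-3p. MiR-21-5p, which acts in bone cells and many other tissues, was the steadiest of the 163, at 30482 to 40223 with anti-sclerostin and 38180 to 47233 with PTH. The SD of its log2 level within drugs was 0.15, and the 95% interval of its fold change included 0.

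Lists of miRNAs known from cell types and pathways were described by their counts and medians beside the median of -0.18 over all 163, and no member of any list passed FDR < 0.2. Of all 163, 91 were lower and 14 (8.59%) had an unadjusted p below 0.05. With extraction controls as library size 139 were lower. Another scaling moved the median over all 163 to -0.27 (TMM over the 9 libraries), -0.05 (RLE) or 0.00 (library totals), and extraction controls as library size to -0.95, so the sign of a list near 0 depends on the scaling. Among the cell type lists, the smooth muscle cluster had the lowest median, -2.32, with 3 of 3 tested members lower under each of these scalings and 2 of these at an unadjusted p below 0.05. These 3 are arms of 1 transcript and not independent of each other. The osteoblast cluster of miR-199a and miR-214 had a median of -1.10, with 3 of 3 lower and 1 at p below 0.05, miR-199a-3p, while miR-199a-5p had a log2 fold change of -1.10 (SE 0.69). These are opposite arms of the same hairpin and not independent, and miR-199a-5p had 3 to 9 reads with anti-sclerostin. MiR-214-3p, at -0.18, was at the median over all 163. The endothelial list had a median of -0.40 with 3 of 4 lower, and 2 to 4 over the other scalings. The cartilage list had one of 0.35 with 2 of 2 higher, but -0.63 with extraction controls. In the leukocyte list 3 of 6 were lower (median 0.01, or -0.89 with extraction controls). MiR-223-3p, a myeloid and platelet miRNA, was at 7674 to 53716 with anti-sclerostin and 6210 to 25092 with PTH. The liver list had 4 of 4 tested members higher (median 0.34), none at p below 0.05, and 3 with TMM over the 9 libraries or 2 with extraction controls. Of the pancreas and endocrine list 1 of 4 was tested, miR-375-3p. MiR-122-3p, of hepatocytes, was at 893 and 1070 in anti-sclerostin rats 2 and 3 and at 108 and 73.4 in rats 1 and 4, on both sides of the PTH range of 151 to 481. The values of anti-sclerostin rats 1 and 4 came from 3 reads each, too few to place them below the PTH range with certainty.

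Red blood cell miRNAs lay lower with anti-sclerostin in all 4 members (median -0.78, none at p below 0.05), against 91 of all 163 miRNAs. The hemolysis ratio is no separate measure of this, since its numerator, miR-451-5p, is one of the 4. MiR-144-3p and miR-144-5p are arms of the same hairpin and not independent of each other. MiR-486 turned above 0 without PTH rat 3 (0.16), anti-sclerostin rat 2 (0.05) or anti-sclerostin rat 3 (0.046). It also did so with the hemolysis ratio as a covariate (0.18). MiR-451-5p was at 35238, 9707, 8556 and 17252 TMM CPM with anti-sclerostin and at 32908, 36065, 98187, 35493 and 7124 with PTH (log2 fold change -1.25, SE 0.64, edgeR-adjusted p = 0.544). Its highest value was in PTH rat 3 and its lowest in PTH rat 5, so PTH spanned the whole anti-sclerostin range. The summed level of the list was 26300 to 206021 with anti-sclerostin and 50663 to 272924 with PTH. With the hemolysis ratio as a covariate, miR-143-3p had a log2 fold change of -2.72 (edgeR-adjusted p = 0.383) and 0 miRNAs were called, with 7 at an unadjusted p below 0.05.

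Of the families acting in bone, the miR-29 family, which targets collagen and other matrix mRNAs, had 3 of 3 tested members higher (median 0.40), or 1 of 3 with extraction controls, at 0.28 for miR-29a-3p, 0.82 for miR-29b-3p and 0.40 for miR-29c-3p. MiR-29a-3p and miR-29c-3p differ at 1 of 22 bases. The osteoblast differentiation list had 3 of 4 higher (median 0.49), and the miR-23, miR-27 and miR-24 clusters 4 of 6 (median 0.25), and with extraction controls these were 2 of 4 and 0 of 6. All 5 members of the miR-99, miR-100 and miR-125 group were lower under each scaling (median -0.65), as in the TMM fit were 6 of 10 of miR-17-92 and miR-106b-25 (median -0.20) and 2 of 4 of miR-15 and miR-16 (median -0.08). Of all 163 miRNAs, 91 were lower in that fit and 139 with extraction controls. None of the 8 listed miRNAs of the imprinted Dlk1-Dio3 cluster passed the count filter, and their summed level was at most 147 with anti-sclerostin and 123 with PTH.

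Members of 1 seed family took both signs. In the let-7 list 3 of 6 tested members were lower (median -0.14). The list leaves out let-7g-5p, which was tested (-0.38), and with it 4 of 7 were lower and the median was -0.38. Let-7i-5p had a log2 fold change of -0.93 (SE 0.49) and miR-98-5p one of -1.55 (SE 0.56), while let-7a-5p and let-7b-5p had 0.96 (SE 0.58) and 0.84 (SE 0.51). The values of let-7a-5p and let-7b-5p rested on anti-sclerostin rat 3, with 764 and 945 TMM CPM, since without it the log2 fold changes were -0.015 and 0.027. As the sequences above show, these miRNAs share the seed, and let-7a-5p differs from miR-98-5p at 2 bases, from let-7b-5p at 2 and from let-7i-5p at 4. In the miR-30 family 3 of 5 were lower (median -0.70), with -0.83 for miR-30a-5p, -0.93 for miR-30d-5p and -0.70 for miR-30e-5p against 0.72 for miR-30b-5p and 0.62 for miR-30c-5p, both below 0 with extraction controls. Without anti-sclerostin rat 3 the log2 fold change was -0.47 for miR-30b-5p and 0.13 for miR-30c-5p. MiR-30a-5p differs from miR-30e-5p at 1 of 22 bases and from miR-30c-5p at 5. The authors' mapping to miRNAs allowed 1 mismatch, so counts of members that differ at 1 base are uncertain.

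**Figure D4:**
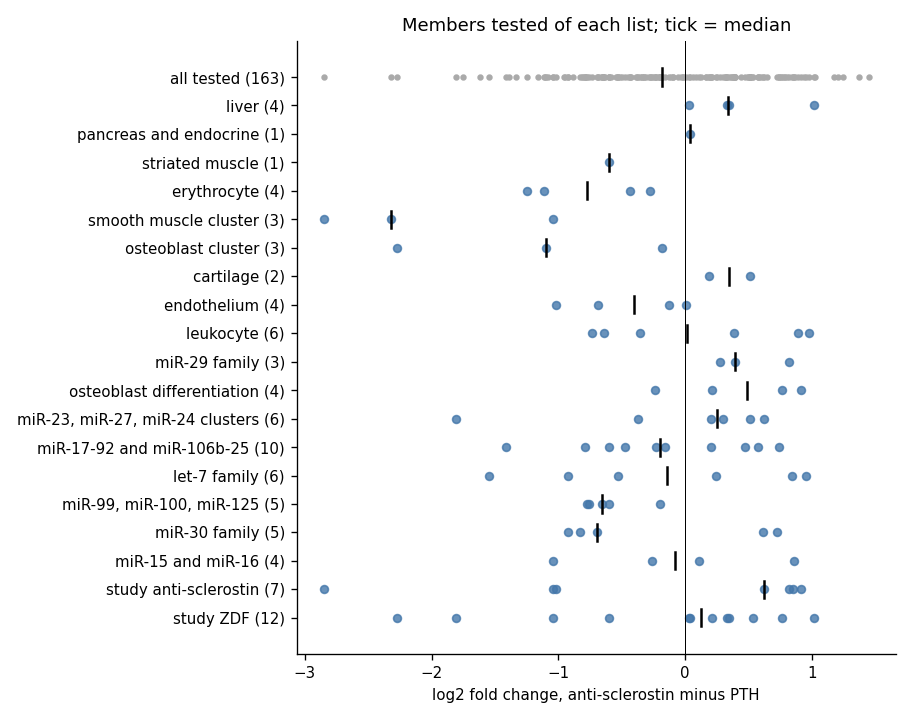
Log2 fold change of anti-sclerostin against PTH for each tested member of 19 lists (number tested in brackets) and, in the top row, for all 163 miRNAs, with the median as a tick. The smooth muscle cluster has the lowest median (-2.32), and members of the let-7 and miR-30 families lie on both sides of 0, though all miR-30 members lie below it with extraction controls.

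The striated muscle list could hardly be compared, since 1 of its 7 members passed the count filter. MiR-133a-3p, a miRNA of heart and skeletal muscle, was at 17006, 117, 172 and 5090 TMM CPM with anti-sclerostin and at 22562, 226, 12396, 1688 and 5227 with PTH (log2 fold change -0.60, 95% interval -3.42 to 2.22). The SD between rats on 1 drug, pooled over the drugs, was 3.06 on the log2 scale. MiR-1-3p and miR-1b, below the filter, had 30 and 55 reads in PTH rat 1 and 22 and 28 in PTH rat 3. In the other 7 rats they had at most 3 reads. When every miRNA with a read was tested and independent filtering was applied, 7 of 186 miRNAs (3.76%) passed FDR < 0.2, all lower with anti-sclerostin: miR-143-3p, miR-1b, miR-1-3p, miR-145-3p, miR-199a-3p, miR-30e-3p and miR-27a-5p. In that test the quasi-likelihood fit drew the spread of single miRNAs much further to the common trend, at 59.3 prior degrees of freedom against 5.50.

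The study chose 7 miRNAs on these anti-sclerostin sera against placebo, so their direction here is not independent. Against PTH, 3 were lower and 4 higher (median 0.62, or -0.27 with extraction controls). MiR-143-3p, miR-145-5p and miR-126a-3p, given above, were lower, and miR-130a-3p, miR-24-3p (0.62, SE 0.38), miR-29b-3p (0.82, SE 0.49) and miR-138-5p (0.91, SE 0.49) higher. MiR-29b-3p was at 577, 540, 974 and 440 TMM CPM with anti-sclerostin, against 751, 199, 210, 345 and 305 with PTH, so that PTH rat 1 alone lay within the anti-sclerostin range. MiR-138-5p, an inhibitor of osteoblast differentiation, was at 546 to 1542 and 244 to 949. The 12 miRNAs the study chose between placebo-treated ZDF and WT rats had a median of 0.12, with 4 lower and 8 higher and none past the threshold, and 7 were lower with TMM over the 9 libraries and 8 with extraction controls. MiR-145-5p, miR-27a-5p, miR-199a-3p and miR-100-5p (-0.60, SE 0.93) were lower. MiR-122-3p had a log2 fold change of 1.01 (SE 0.70), miR-31a-5p 0.77 (SE 0.61), miR-320-3p 0.53 (SE 0.46), miR-192-5p 0.35 (SE 0.57), miR-122-5p 0.33 (SE 0.71), miR-218a-5p 0.21 (SE 1.32), miR-375-3p 0.04 (SE 0.52) and miR-802-5p 0.03 (SE 0.74). For miR-375-3p, an islet and pituitary miRNA, the interval was -1.10 to 1.17.

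Ranked by all 163 miRNAs, the sera did not form 1 cluster per drug, although 7 of the 9 were closest to a serum of the same drug. Spearman's rho between pairs of libraries was 0.722 to 0.972 within anti-sclerostin (6 pairs), 0.801 to 0.944 within PTH (10 pairs) and 0.651 to 0.930 between drugs (20 pairs), with medians of 0.782, 0.843 and 0.864. These are descriptions over miRNAs that share libraries. Anti-sclerostin rats 2 and 3 were the closest pair (0.972) and rats 1 and 4 were close (0.925), while rho between these pairs was lower, down to 0.722 for rats 1 and 3. PTH rats 1 and 3 were each closest to anti-sclerostin rat 1 (0.918 and 0.899). Anti-sclerostin rats 1 and 4 were also those with the fewest miRNA reads, and the part of depth in this was not tested.

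**Figure D5:**
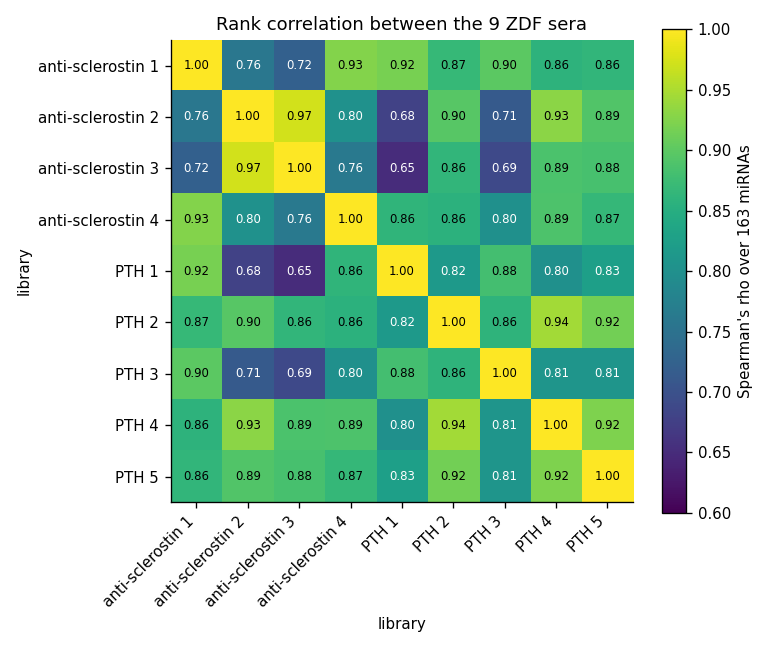
Spearman's rho between each pair of the 9 ZDF sera over the 163 miRNAs tested (color scale from 0.6 to 1, value in each cell). Anti-sclerostin rats 2 and 3 form the closest pair (0.972), and pairs between drugs reach 0.930, while pairs within anti-sclerostin go down to 0.722.

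In lean WT rats the same drugs were compared in other animals. No miRNA passed FDR < 0.2 in edgeR (0 of 169, 0%), and 1 had an unadjusted p below 0.05 (0.592%), again miR-143-3p. Its level in WT rats was 4099 to 7115 TMM CPM with anti-sclerostin and 6796 to 16847 with PTH (log2 fold change -1.13, SE 0.36, unadjusted p = 0.00674, edgeR-adjusted p = 0.992). MiR-143-3p thus had the smallest unadjusted p in each genotype, on rats that did not overlap, and passed the threshold in neither. As in ZDF rats, the study credits the WT rats on each drug to a different publication. Drug and experiment of origin cannot be told apart in WT rats either, and a difference shared by the genotypes does not separate them. DESeq2 called 0 in WT rats. Of the 14 miRNAs with an unadjusted p below 0.05 in ZDF rats, 13 were tested in WT rats. Of the 9 lower ones 8 were also lower in WT rats, and the 4 higher ones were all lower there, where 100 of the 158 miRNAs tested in both genotypes were lower. The sign was the same for 8 of the 13 and for 97 of the 158. MiR-126a-3p had a log2 fold change of -0.37 (SE 0.39) in WT rats and miR-22-3p one of -0.43 (SE 0.34), the latter opposite to the ZDF value.

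The difference between the genotypes was tested by an interaction term. No miRNA passed FDR < 0.2 (0 of 180, 0%; DESeq2 also called 0), and 5 had an unadjusted p below 0.05 (2.78%). The values are the log2 fold change between drugs in ZDF rats minus that in WT rats. These were miR-193a-3p (2.18, edgeR-adjusted p = 0.928), miR-22-3p (1.22), miR-151-3p (-1.40), miR-143-3p (-1.72) and miR-98-5p (-1.77). For miR-143-3p the unadjusted p of the interaction was 0.0325, so a larger drug difference in ZDF rats was not established after adjustment.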

How the data were processed

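RNA of serum was sequenced on the 9 ZDF libraries compared here. The authors removed adapters (cutadapt) and reads under 17 nt, aligned the rest by bowtie and miRDeep2 to Rnor 6.0 (2 mismatches), then to rat miRBase entries (1 mismatch), and deposited whole-number read counts per miRNA. RPM values, scaled by the authors to all reads of a library, were deposited beside them and gave the library totals. Removal of PCR copies is not given in the sources used here, and such copies can inflate a count.

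Counts were tested with edgeR 4.0.16 (quasi-likelihood, legacy = TRUE) in R 4.3.3 after TMM scaling over the 32 sera and filterByExpr, at FDR < 0.2, with only the compared groups in the fit. This filter replaced the study's independent filtering, which was an alternative. DESeq2 1.42.0, other scalings and filters, and each rat left out were also tried. Single levels were compared by exact permutation of log2(TMM CPM + 1), two-sided. The hemolysis ratio used a pseudocount of 0.5. Fits were tested on simulated data. Named miRNAs were all at FDR < 0.2, those without overlap between groups, the 8 most abundant, and list members, up to 4 per list and all of the study's 2 lists. Members, lists and rules were chosen with earlier results of these data known. Counts of same-group libraries differed beyond counting noise in all 32 pairs (chi-squared per degree of freedom at least 14.5). P-values set the difference between groups against the spread between rats of a group, which does not cover differences between experiments of origin.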

Additional observations from a re-analysis of the deposited data

Results flagged for a closer look

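The level of a named miRNA, or a library measure, in 1 drug group made up 50 sets of values. Of these, 7 held a rat farther from the others than Dixon's 95% critical value allows. In independent sets of normally distributed values chance flags about 1 in 20. The levels here were TMM CPM rather than log2 values, and the sets share rats, so the count of 7 cannot be set against that rate. The value given is the gap to the nearest rat as a share of the group's range. With PTH, rat 1 was the highest for miR-143-3p (0.758) and miR-145-3p (0.890), and rat 3 for miR-25-3p (0.775) and miR-486 (0.739). With anti-sclerostin, rat 1 was the highest for miR-145-3p (0.866) and miR-199a-3p (0.898), and rat 4 the lowest for miR-19b-3p (0.844).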

How the results depend on the processing

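No paired analysis applied, because the drugs were given to different rats. The 14 miRNAs with an unadjusted p below 0.05 kept their direction under each of up to 21 alternatives. The count of 0 at FDR < 0.2 became 7 with every miRNA of at least 1 read and independent filtering, 3 with at least 1 read alone, and 1 (miR-143-3p each time) with DESeq2, filterByExpr and independent filtering, TMM over the 9 libraries, legacy = FALSE or all 7 serum groups in one fit. Leaving out 1 rat gave 0 to 3, namely 3 without anti-sclerostin rat 1, 2 without PTH rat 3 and 1 without PTH rat 4. It remained 0 with RLE, library totals, extraction controls, robust = TRUE, FDR < 0.05 or the hemolysis covariate, which was chosen after seeing the data. In WT rats it became 3 and 1 with the 2 independent filterings, and the interaction stayed at 0. With extraction controls as library size the median log2 fold change went from -0.18 to -0.95, and signs turned for miR-29a-3p (-0.62), let-7b-5p (-0.033), miR-24-3p (-0.27), miR-30c-5p (-0.22), miR-30b-5p (-0.03), miR-29c-3p (-0.37), miR-122-5p (-0.69), miR-218a-5p (-1.18), miR-375-3p (-0.25) and miR-802-5p (-0.10). They also turned with library totals for miR-92a-3p (0.015), with TMM over the 9 libraries for miR-218a-5p (-0.021), miR-375-3p (-0.076) and miR-802-5p (-0.005), and with the covariate for miR-486 (0.18), miR-25-3p (0.17), miR-192-5p (-0.37) and miR-802-5p (-1.12). Without 1 rat the values ran from -0.49 to 0.018 for miR-191a-5p, -1.27 to 0.16 for miR-486, -1.54 to 0.056 for miR-25-3p, -0.015 to 1.23 for let-7a-5p, -0.47 to 1.06 for miR-30b-5p, -0.006 to 0.65 for miR-192-5p, -0.40 to 0.71 for miR-122-5p, -2.26 to 0.18 for miR-133a-3p, -0.72 to 1.41 for miR-218a-5p, -0.21 to 0.36 for miR-375-3p and -0.39 to 0.35 for miR-802-5p. The cause was not tested. The 3 library tests kept their direction and call under their alternatives. So did the permutation tests of miR-143-3p, miR-126a-3p and miR-1839-5p with a pseudocount of 0.5 or 5, which cannot undo the absence of overlap of miR-126a-3p and miR-1839-5p. Depth limits the low miRNAs, with under 10 reads of miR-145-3p, miR-199a-3p and miR-199a-5p in each anti-sclerostin rat. Those rats had 1 to 11 reads of miR-10b-5p, 4 to 14 of miR-450a-5p, 3 to 21 of miR-27a-5p and 3 to 25 of miR-98-5p. They had 9 to 30 of miR-30e-3p, 6 to 35 of miR-1839-5p, 3 to 61 of miR-193a-3p and 4 to 81 of miR-22-5p.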

Other observations

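The spread between rats on 1 drug differed widely between miRNAs, these being named after their values were seen. The SD of log2(TMM CPM + 1), pooled over the drugs, had a median of 0.78 over the 163 miRNAs, and exceeded 1 for 52. It was highest for miR-218a-5p (3.68), miR-133a-3p (3.06), miR-676 (2.69) and miR-205 (2.65), and lowest for miR-21-5p (0.15) and miR-872-5p (0.24). MiR-218a-5p, known to act in osteoblasts, was at 865, 5.87, 19.1 and 587 TMM CPM in anti-sclerostin rats 1 to 4 and at 969, 0, 384, 49.3 and 68.8 in PTH rats 1 to 5. Within each drug the 2 highest rats were the same for miR-218a-5p and miR-133a-3p, 1 and 4 with anti-sclerostin and 1 and 3 with PTH, while PTH rat 5 was at 68.8 TMM CPM of miR-218a-5p and 5227 of miR-133a-3p.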
